A study of Mus musculus with 48 samples.

Results

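Btg1, Btg2, Plk2, Mcl1 and Ier2 are activity-related genes whose transcripts were measured with 48 Affymetrix arrays of mouse brain, 26 of hippocampus and 22 of amygdala. The members were chosen by symbol, together with Btg3, on the measured differences of CS and FC from NH arrays in earlier results of these data, as genes with weaker differences. Of the 6 symbols, 5 have a probe set of their own, out of 8251 gene symbols on probe sets that name 1 gene, and each of the 5 has exactly 1. The only probe set that lists Btg3 also lists Gm7334, so no value is given for Btg3. Since the members were chosen with the same contrasts in view, every difference between arms below is a description, and no p-value is used to support it.

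Each array carried biotin-labelled cRNA made from total RNA. The hippocampus gave 8 arrays of the arm CS, 8 of FC and 10 of NH, and the amygdala gave 6 of CS, 6 of FC and 10 of NH. The labels do not spell out these codes. From the series title, which names associative and nonassociative learning, they are read as the conditioned stimulus alone (CS), fear conditioning (FC) and naive home cage (NH). The sources used here do not give strain, sex, age or the time from training to dissection. The labels do not say whether replicates came from separate animals, so the errors below cover the variation from array to array and may be technical. Every amygdala title has a number that starts with its batch, and in 8 of 22 the remaining digits split into 2 numbers that both title hippocampal arrays of the same arm. Those amygdala arrays may be pools of 2 animals whose hippocampi were also used, which no label states. The labels name 7 processing batches. Amygdala arrays of all 3 arms share batch 2 (3 CS, 4 FC, 3 NH) and batch 3 (3 CS, 2 FC, 1 NH), and the other 6 NH arrays make up batch 1. Hippocampal arrays of all 3 arms share batch 4 (3 CS, 2 FC, 2 NH) and batch 6 (1 CS, 2 FC, 2 NH), while batch 5 has 4 CS with 4 FC and batch 7 has 6 NH. With batch as a block, each difference from NH therefore rests on 4 NH arrays per tissue.

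Values are log2 of the deposited intensity, and a difference of 1 is a doubling. The median intensity of an array was 76.5 to 80.8 for hippocampus but 52.3 to 56.1 for amygdala. The 2 tissues were therefore treated as scaled apart, and levels are compared between them only as a percentile within each array. Markers of hippocampal neurons lay at a median percentile of 67.3 in hippocampus and 35.0 in amygdala (9 genes). Amygdala markers had medians of 55.2 and 65.0 (3 genes). Both pairs of medians have the order the tissue labels give, but not every amygdala marker does. The same share of the dimmest probe sets was left out of testing in each tissue. That left out 1 of the 3 amygdala markers in amygdala and 0 in hippocampus, so this marker ranked lower in amygdala. Arrays of dissected tissue cannot tell a change in the number of cells of one type from a change in RNA per cell.

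Immediate early genes are transcribed within minutes of synaptic activity without new protein synthesis, and in the hippocampus and amygdala their transcripts are widely used to mark neurons engaged by learning. Many of them are switched on through phosphorylated CREB, which binds the cyclic AMP response element (CRE), and through serum response factor, which binds the CArG box. The members differ in what they encode. Ier2 is a small, largely nuclear immediate early protein. Plk2 (also called SNK) is a polo-like kinase that is induced by activity and takes part in weakening and removing excitatory synapses. Mcl1 is a short-lived member of the BCL2 family that keeps the apoptotic proteins Bak and Bax in check. Btg1 and Btg2 are antiproliferative proteins that bind the CCR4-NOT deadenylase and speed the shortening of poly(A) tails. Btg2 (also called Tis21 or PC3) is in addition a target of p53 and a marker of neural progenitors about to divide into neurons.

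The promoter windows of the members are shown because the CRE is one of the elements named above, and because the members with a window differ in it. The windows are from RefSeq, build GRCm38.p6, and run from 250 bases before to 50 bases after an annotated start. A window was present for 4 of the 5 members. That of Btg1 is chr10:96616751-96617050 on the plus strand, that of Btg2 chr1:134079106-134079405 on the minus strand, that of Plk2 chr13:110394794-110395093 on the plus strand and that of Mcl1 chr3:95658471-95658770 on the plus strand. For Btg1, Btg2 and Plk2 the annotated start is the gene start. The window of Mcl1 lies inside the RefSeq span of the gene and not at its edge, so its annotated start is not the gene start. No window was used for Ier2. All are printed 5′ to 3′ in the direction of transcription, and capitals mark each CRE (TGACGTCA) and each copy of its core (TGACG or, on the other strand, CGTCA).
Plk2: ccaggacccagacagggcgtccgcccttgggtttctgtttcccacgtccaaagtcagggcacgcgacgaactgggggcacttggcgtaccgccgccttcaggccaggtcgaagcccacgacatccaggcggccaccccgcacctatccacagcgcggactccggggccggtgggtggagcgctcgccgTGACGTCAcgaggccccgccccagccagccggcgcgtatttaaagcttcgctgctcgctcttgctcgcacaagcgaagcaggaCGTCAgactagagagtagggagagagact
Btg2: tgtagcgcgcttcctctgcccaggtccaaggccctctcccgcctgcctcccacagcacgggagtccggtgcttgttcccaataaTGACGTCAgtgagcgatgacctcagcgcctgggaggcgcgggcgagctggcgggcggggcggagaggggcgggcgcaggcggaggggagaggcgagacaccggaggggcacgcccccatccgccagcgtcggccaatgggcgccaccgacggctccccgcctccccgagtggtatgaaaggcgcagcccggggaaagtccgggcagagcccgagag
Btg1: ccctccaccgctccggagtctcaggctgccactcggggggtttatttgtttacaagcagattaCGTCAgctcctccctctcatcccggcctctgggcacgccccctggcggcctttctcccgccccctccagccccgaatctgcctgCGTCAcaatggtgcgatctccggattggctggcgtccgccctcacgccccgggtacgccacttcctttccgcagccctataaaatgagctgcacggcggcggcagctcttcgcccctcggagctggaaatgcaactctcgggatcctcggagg
Mcl1: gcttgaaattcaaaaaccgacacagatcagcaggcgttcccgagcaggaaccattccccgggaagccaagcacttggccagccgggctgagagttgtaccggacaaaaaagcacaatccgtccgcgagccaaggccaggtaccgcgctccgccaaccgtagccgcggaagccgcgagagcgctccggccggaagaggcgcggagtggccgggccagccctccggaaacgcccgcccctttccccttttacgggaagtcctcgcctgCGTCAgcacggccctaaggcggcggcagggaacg

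The window of Plk2 holds a complete CRE from position -62, counted from the gene start, and a further core at position 22. In Btg2 a complete CRE begins at position -166. Btg1 holds cores at positions -187 and -103 but no complete CRE. Mcl1 holds 1 core at position 17, counted from the annotated start of its window. Both strands were searched, and every CRE also contains the core. Of 32851 RefSeq promoter windows of this length, 1.79% hold a CRE and 20.8% the core. The AP-1 site TGANTCA, in 7.81% of windows, and the CArG box, in 1.63%, have no match in the 4 members' windows. Among the listed immediate early genes, 36 of 49 had a window, and of these 2 held a complete CRE and 23 the core. Those counts are per gene, over any of its windows, whereas the percentages are per window, so they are not directly comparable. All motif counts here are matches of letters only, and no binding was measured.

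The members lie at very different heights on the arrays. Plk2 was among the brightest transcripts, at a median percentile of 97.4 in hippocampus and 96.7 in amygdala. Btg2 followed at 88.3 and 90.3. Mcl1 lay at 66.4 in both tissues and Btg1 at 54.1 and 58.7. Ier2 was dim, at 31.1 in hippocampus and 23.9 in amygdala, so it fell below the brightness filter that leaves out the dimmest 40% of probe sets in each tissue. The other 4 members passed that filter in both tissues, and values for Ier2 come from the same fit on all 12422 probe sets. No detection call was available, so how far the Ier2 signal stands above background on these arrays is not known.

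**Figure D1:**
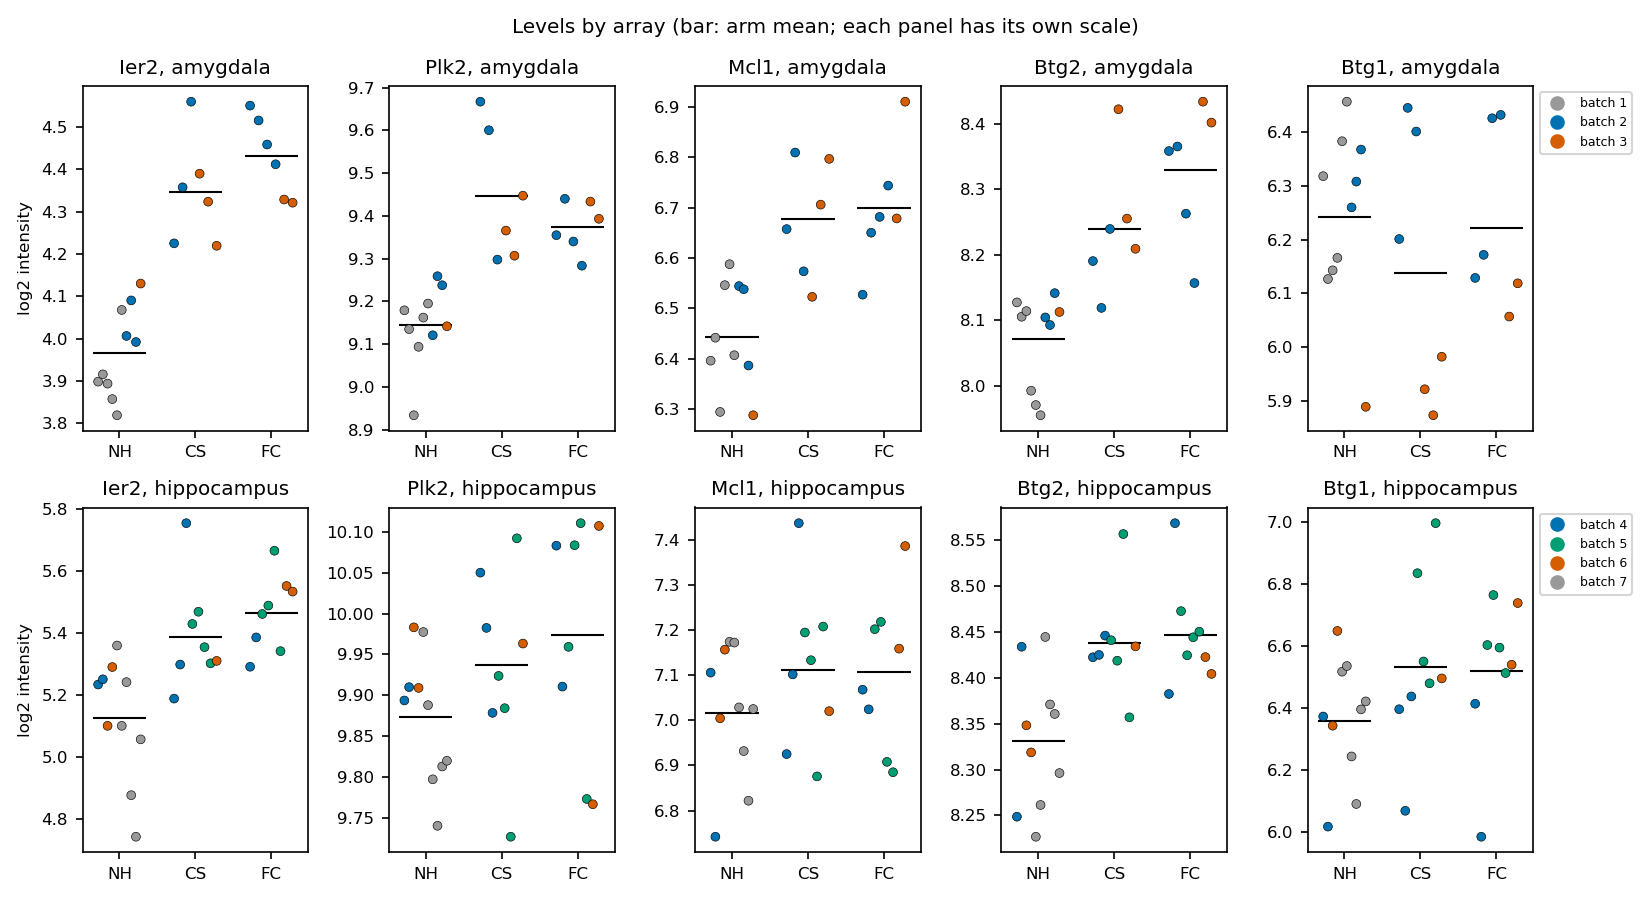
Log2 of the deposited intensity (vertical axis, a separate scale in each panel) of Ier2, Plk2, Mcl1, Btg2 and Btg1 in each array, by arm, with the amygdala above and the hippocampus below. Points are arrays coloured by processing batch and bars are arm means; in the amygdala all CS and FC arrays lie above all NH arrays for Ier2 and Plk2, and no hippocampal panel separates in that way.

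Ier2 (gene identifier 15936; GRCm38.p6 chr8:84661331-84662852) separated the amygdala arms most widely when all batches were fitted together on the log2 scale, though not within batch 3 or with an offset added. In batch 2 its log2 level was 3.99, 4.01 and 4.09 in the NH arrays, 4.23, 4.36 and 4.56 in the CS arrays, and 4.41, 4.46, 4.52 and 4.55 in the FC arrays. In batch 3 the NH array read 4.13, the CS arrays 4.22, 4.32 and 4.39, and the FC arrays 4.32 and 4.33. The 6 NH arrays of batch 1 ran from 3.82 to 4.07. Every one of the 12 CS and FC arrays was thus above every one of the 10 NH arrays, in any batch, while CS and FC arrays overlapped each other. Batch 1 holds only NH arrays, so for them batch and arm cannot be told apart. The share of all probe sets that separate across batches was not counted. Within shared batches, 1.38% of all probe sets had every FC array above NH, and 1.62% every CS array. Over the arms the mean level was 3.97 ± 0.106 in NH (SD, n = 10), 4.35 ± 0.126 in CS (n = 6) and 4.43 ± 0.095 in FC (n = 6).

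With batch as a block, Ier2 was 1.30-fold higher in amygdala FC than NH, a log2 difference of 0.38 ± 0.064 (SE; 95% interval 0.25 to 0.51; 2.87% of all probe sets had an interval above 0). Over all 12422 probe sets, 0.0644% had a larger difference. The fold depends on the scale, since Ier2 is dim: with 16 added to the intensity before the log, the difference was 0.21 in FC and 0.17 in CS, below those of Mcl1 (0.22 and 0.20) on the same scale. In CS, with nothing added, the difference from NH was 0.31 ± 0.065 (0.17 to 0.44; an interval above 0 in 2.03% of all probe sets), or 1.24-fold, and 0.0322% of probe sets had a larger one. Within batches the FC difference was 0.45 in batch 2 and 0.19 in batch 3, and the CS difference was 0.35 and 0.18. In batch 3, with its single NH array, the FC difference of Ier2 was the smallest of the 5 genes. With the brightness filter, Ier2 was not tested. Over all 12422 probe sets, with no filter, Ier2 was among the 8 that passed in FC minus NH (limma, Benjamini-Hochberg adjusted p = 0.00674). Of these probe sets 0.0644% passed. This call was picked out after seeing the data, and it is a description, not support. Leaving out 1 of the 4 NH arrays it rests on ended that call in 2 cases, with limma adjusted p = 0.0717 without NH replicate 28892 and 0.0569 without NH replicate 299141. It was also lost in batch 2 alone (0.202) and in batch 3 alone (0.455). In CS minus NH its adjusted p was 0.214 by the same unfiltered limma fit, in which 0.00805% of probe sets passed.

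In the hippocampus Ier2 was higher in the same order of arms, but by less and with overlap. The NH arrays ran from 4.74 through a median of 5.17 to 5.36, the CS arrays from 5.19 through 5.33 to 5.75, and the FC arrays from 5.29 through 5.48 to 5.67. Within batch 4 the NH arrays read 5.23 and 5.25 and the FC arrays 5.29 and 5.39. Within batch 6 they read 5.10 and 5.29 against 5.53 and 5.55. All 4 FC arrays that share a batch with NH were above the NH arrays of that batch, as in 2.2% of all probe sets. The difference was 0.24 ± 0.104 (0.02 to 0.45) in FC, where 1.47% of all probe sets had an interval above 0, and 0.16 ± 0.106 (-0.05 to 0.38) in CS, where 0.974% did. Neither passed the unfiltered limma test, with adjusted p = 0.9999 in both, and 0.00805% of all probe sets passed in each. Of the 4 CS arrays that share a batch with NH, 3 were above its NH arrays (all of them in 1.96% of probe sets). The CS difference was 0.08 without CS replicate 109, the array at 5.75. In FC the difference was 0.10 within batch 4 and 0.35 within batch 6. With 16 added before the log, the hippocampal difference was 0.17 in FC and 0.12 in CS, beside 0.21 and 0.17 in the amygdala.

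Plk2 (gene identifier 20620; chr13:110395044-110400844) showed the second clear separation in the amygdala. In batch 2 the NH arrays read 9.12, 9.24 and 9.26, the CS arrays 9.30, 9.60 and 9.67, and the FC arrays 9.28, 9.34, 9.35 and 9.44. In batch 3 the NH array read 9.14, the CS arrays 9.31, 9.37 and 9.45, and the FC arrays 9.39 and 9.43. All 12 CS and FC arrays exceeded all 10 NH arrays, which ran from 8.93 to 9.26. The gap was narrow: the lowest FC array of batch 2, at 9.28, stood just above the highest NH array, at 9.26.

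Unlike Ier2, Plk2 had its higher mean in CS. The difference from NH was 0.27 ± 0.069 (0.13 to 0.41), 1.21-fold, in CS and 0.19 ± 0.068 (0.05 to 0.33), 1.14-fold, in FC. FC minus CS was -0.08 ± 0.061 (-0.21 to 0.04), an interval that includes 0, and it was -0.17 in batch 2 and 0.04 in batch 3. The excess of CS over FC in batch 2 rests on 2 arrays, at 9.60 and 9.67, since every other CS array read 9.45 or less. Within batches the CS difference from NH was 0.32 in batch 2 and 0.23 in batch 3. The FC difference was 0.15 and 0.27. In the hippocampus the arms overlapped throughout: NH ran from 9.74 to 9.98, CS from 9.73 to 10.09 and FC from 9.77 to 10.11. There the difference from NH was 0.02 ± 0.077 (-0.14 to 0.18) in CS and 0.06 ± 0.076 (-0.10 to 0.22) in FC.

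Mcl1 (gene identifier 17210, chr3:95656944-95663179) was higher in both the CS and the FC arm of the amygdala by similar amounts. In batch 2 the NH arrays read 6.39, 6.54 and 6.54, the CS arrays 6.57, 6.66 and 6.81, and the FC arrays 6.53, 6.65, 6.68 and 6.74. In batch 3 the NH array read 6.29, the CS arrays 6.52, 6.71 and 6.80, and the FC arrays 6.68 and 6.91. Within batches every CS array was above the NH arrays, as were 5 of 6 FC arrays. Against all NH arrays the arms overlapped, since batch 1 reached 6.59.

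The Mcl1 difference was 0.24 ± 0.077 (0.08 to 0.39) in CS, 1.18-fold, and 0.26 ± 0.075 (0.10 to 0.41) in FC, 1.20-fold. In FC it was 0.16 in batch 2 but 0.51 in batch 3, where the only NH array, at 6.29, was the lowest amygdala array for this gene. Without that array, NH replicate 3142153, the CS difference was 0.16 and the FC difference 0.19. FC and CS differed by 0.02 (-0.12 to 0.16). In the hippocampus the point estimates had the same sign, 0.16 ± 0.105 (-0.05 to 0.38) in CS and 0.14 ± 0.104 (-0.07 to 0.35) in FC, with intervals that include 0. The CS value was 0.23 within batch 4 and -0.06 within batch 6, where 1 CS array was compared. Without NH replicate 111 the hippocampal values were 0.07 in CS and 0.06 in FC, without CS replicate 109 the CS value was 0.09, and without FC replicate 79 the FC value was 0.09.

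Btg2 (gene identifier 12227; chr1:134074865-134079155) had its clearest difference in FC. In batch 2 of the amygdala the NH arrays read 8.09, 8.10 and 8.14, the CS arrays 8.12, 8.19 and 8.24, and the FC arrays 8.16, 8.26, 8.36 and 8.37. In batch 3 the NH array read 8.11, the CS arrays 8.21, 8.26 and 8.42, and the FC arrays 8.40 and 8.43. All 6 FC arrays were above all 10 NH arrays, whose highest read 8.14. One CS array of batch 2, at 8.12, lay within the NH range.

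Btg2 was 1.16-fold higher in amygdala FC than NH, by 0.21 ± 0.056 (0.09 to 0.32), with 0.17 in batch 2 and 0.31 in batch 3. In CS the difference was 0.10 ± 0.057 (-0.01 to 0.22). FC minus CS was 0.11 ± 0.050 (0.00 to 0.21, the lower bound just above 0), with 0.10 and 0.12 in the 2 batches. Of the members, Btg2 alone had an interval above 0 for that comparison, in which 0.832% of tested probe sets, and 0.877% of all, had one. In the hippocampus NH ran from 8.23 to 8.44, CS from 8.36 to 8.56 and FC from 8.38 to 8.57. The differences from NH there were 0.09 ± 0.054 (-0.02 to 0.20) in CS and 0.10 ± 0.053 (-0.00 to 0.21) in FC.

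Btg1 (gene identifier 12226; chr10:96617001-96622813), the close relative of Btg2, showed no such pattern. In the amygdala NH ran from 5.89 to 6.46, CS from 5.87 to 6.45 and FC from 6.06 to 6.43. The difference from NH was 0.02 ± 0.078 (-0.14 to 0.18) in CS and 0.04 ± 0.077 (-0.11 to 0.20) in FC. Its levels followed the batch: all 6 arrays of batch 3, at 5.87 to 6.12, were below every array of batches 1 and 2, which began at 6.13. In the hippocampus the 8 arrays of batch 5 had a mean of 6.67 against 6.24 for the 7 of batch 4. The hippocampal differences from NH were 0.11 ± 0.115 (-0.13 to 0.34) in CS and 0.05 ± 0.113 (-0.18 to 0.29) in FC. The hippocampal intervals leave room for differences of about the size seen for Plk2 or Mcl1 in the amygdala. The amygdala FC interval of Btg1 also reached 0.20, beside 0.19 for Plk2 in FC. Within batches that difference of Btg1 was -0.02 in batch 2 and 0.20 in batch 3, which has a single NH array.

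**Figure D2:**
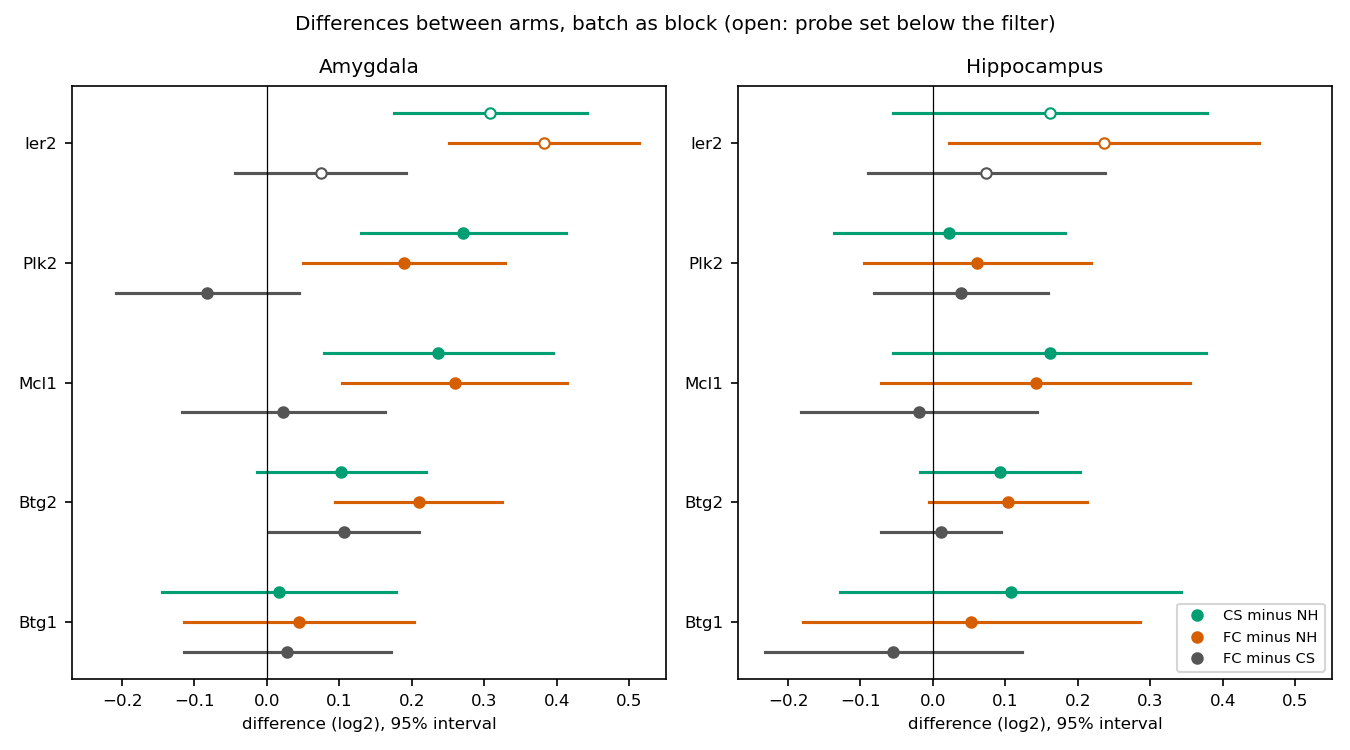
Log2 differences between arms (horizontal axis) for the 5 genes in each tissue, with batch as a block; points are estimates, bars are 95% intervals and open points mark Ier2, which lies below the brightness filter. In the amygdala the intervals of Ier2, Plk2 and Mcl1 lie above 0 in both CS minus NH and FC minus NH, that of Btg2 only in FC minus NH and narrowly in FC minus CS, and those of Btg1 include 0.

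Counted together, none of the 4 tested members passed the limma test (Benjamini-Hochberg adjusted p, threshold 0.05, over 7453 probe sets) in any of the 6 comparisons. Few probe sets did: 0.0939% in amygdala FC minus NH, 0.0134% in amygdala CS minus NH, 0.0134% in each hippocampal difference from NH, and 0% in FC minus CS in both tissues. In amygdala FC minus NH, 3 of the 4 had a 95% interval above 0 (Btg2, Plk2 and Mcl1), which in this fit is an unadjusted p under 0.05 with a positive sign, as did 4.05% of tested probe sets. In amygdala CS minus NH there were 2 of 4 (Plk2 and Mcl1), against 2.64%. In the hippocampus there was none of the 4 in CS minus NH, where 1.03% had one, none in FC minus NH, where 1.53% did, and none in FC minus CS, where 0.429% did. The median difference of the 4 was 0.20 in amygdala FC minus NH and 0.17 in CS minus NH, beside 0.01 over all tested probe sets in each. In the hippocampus it was 0.08 and 0.10, beside -0.00 and 0.00. All 4 differences from NH were positive in each tissue and arm, where 55.2% (FC) and 53.8% (CS) of tested probe sets were positive in the amygdala and 49.7% and 50.5% in the hippocampus. In FC minus CS, 3 of 4 were positive in the amygdala (51.8% of tested probe sets) and 2 of 4 in the hippocampus (50.4%).

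The same arrays were also compared by overlap within shared batches, which is another description of the same differences and no separate evidence. In amygdala FC minus NH, Btg2 and Plk2, but not Mcl1, had all 6 FC arrays above the NH arrays of their batch, as did 2.03% of tested probe sets (for Ier2, 1.38% of all probe sets). In amygdala CS minus NH this held for Plk2 and Mcl1, against 2.31% (for Ier2, 1.62%). No tested member had it in the hippocampus, where 1.6% of probe sets did in CS minus NH and 2.29% in FC minus NH, nor in FC minus CS of the amygdala (0.0537%) or hippocampus (0%). Because both differences from NH use the same NH arrays, they are not independent of each other.

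Whether the tissues differed was examined in a joint fit, which treats their arrays as independent even though some may share animals. The CS minus NH difference of Plk2 was larger in amygdala than in hippocampus by 0.25 ± 0.104 (0.04 to 0.46), with limma adjusted p = 0.998 over the 7242 probe sets tested in both tissues. For FC minus NH the amygdala exceeded the hippocampus by 0.15 (-0.11 to 0.40) for Ier2, 0.13 (-0.08 to 0.33) for Plk2, 0.12 (-0.15 to 0.38) for Mcl1 and 0.11 (-0.04 to 0.25) for Btg2. For Btg1 the value was -0.01 (-0.30 to 0.28). The Ier2 value depends on the scale: with 16 added before the log, its FC difference was 0.21 in amygdala and 0.17 in hippocampus. Apart from that of Plk2 in CS minus NH, all of the 15 intervals include 0. The intervals are not adjusted for the number of comparisons, and none of the 15 values passed the adjusted test. The share of all probe sets with an interval above 0 was not counted for this fit. A difference between tissues was thus not resolved for any member, Plk2 included, nor was it shown to be absent.

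The size of these differences can be set beside well-known immediate early genes in amygdala FC minus NH. Fos, which encodes a subunit of AP-1, differed by 1.53 ± 0.146 (SE; limma adjusted p = 1.44e-06). Dusp1, a phosphatase that switches off MAP kinases, differed by 0.54, and Junb, another AP-1 subunit, by 0.53 on one probe set and 0.33 on the other. Nr4a1, an orphan nuclear receptor, differed by 0.44 and Egr1, a zinc finger transcription factor, by 0.41. The value of Ier2, 0.38 (0.21 with 16 added before the log), lay next to that of Egr1, while Mcl1, Btg2 and Plk2, at 0.26, 0.21 and 0.19, were below all of these. Fos and Egr1 each have a second probe set below the brightness filter, at 0.03 and -0.20, so the order holds only for the tested probe sets of the comparators. The comparators are among the 7 listed immediate early genes that passed in this comparison, and the members were chosen as weaker. The order therefore follows from the choice. Over all 27 tested immediate early genes the median was 0.16, below Mcl1, Btg2 and Plk2 and above Btg1 (0.04).

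**Figure D3:**
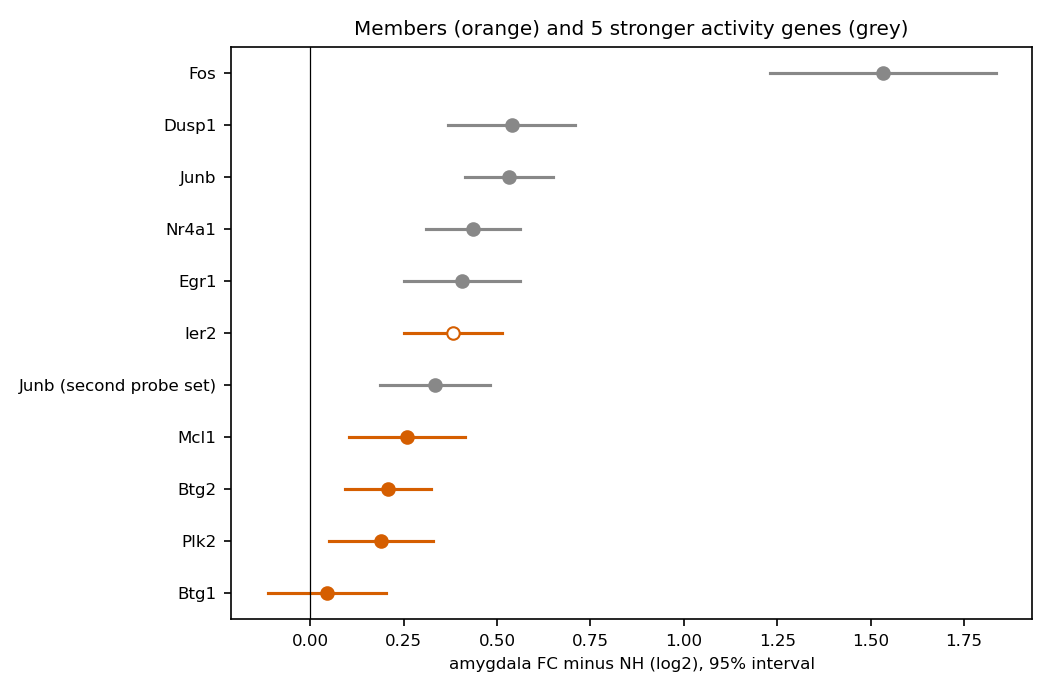
Log2 difference of FC minus NH in the amygdala (horizontal axis) with its 95% interval, for the 5 members in orange and for the tested probe sets of Fos, Dusp1, Junb, Nr4a1 and Egr1 in grey. Ier2 at 0.38 lies beside Egr1 at 0.41, and the other members lie from 0.04 to 0.26, below every comparator probe set shown. The comparators are among the 7 listed immediate early genes that passed here, and the dim second probe sets of Fos and Egr1 are left out.

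The pathways around the members were examined through lists from which the members themselves were left out. Of 49 immediate early genes, 35 are on the array by a probe set of their own and 27 were tested in the amygdala. In FC minus NH 19 of the 27 had a positive and 8 a negative difference, with a median of 0.16. Beside 0.0939% of all tested probe sets, 7 of the 27 passed by the limma test, all of them higher. Besides the 5 comparators these were Egr2, a relative of Egr1, at 0.43, and Gadd45g, a stress-response gene, at 0.30. In CS minus NH 1 of the 27, Fos, passed and was higher. Fos was also the 1 of 26 that passed, again higher, in each hippocampal difference from NH. In each of these comparisons 0.0134% of all tested probe sets passed. None of the other lists had a gene that passed in amygdala FC minus NH.

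Of the BTG and TOB family with the CCR4-NOT deadenylase, 9 were tested and 5 had positive differences, with a median of 0.00. The largest was Tob1, an antiproliferative relative of Btg2, at 0.15 ± 0.105, followed by Pabpc1, the poly(A) binding protein, at 0.13 and Cnot4, a ubiquitin ligase that binds the complex, at 0.11. Of the polo-like kinases and synaptic partners of Plk2, 8 were tested and 4 were positive, also with a median of 0.00. Cdk5, a kinase that primes substrates for Plk2, was at 0.15, and the relatives Plk1 and Plk3 were at -0.13 and -0.08.

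The 13 tested members of the BCL2 family were split 7 positive and 6 negative, with a median of 0.02. Bad, a proapoptotic partner, was at -0.13, Bak1, a pore former held by Mcl1, at 0.09, and Bcl2l1, the survival protein also called Bcl-xL, at 0.08. Of 10 tested p53 response genes, 5 were positive and the median was 0.00. Ccng1 was at -0.10, the cell cycle inhibitor Cdkn1a at -0.09 and Rrm2b at -0.08. These genes lie around the median of all tested probe sets, 0.01. No set test was made, and nothing particular to a list is read from these counts.

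Markers of other cells differed in both directions in the same comparison, and none passed the test. In amygdala FC minus NH, 6 of 7 tested microglial markers were positive, with a median of 0.10. The summed intensity of all 8 microglial genes on the array, dim ones included, was 1161 to 1336 in NH, 1232 to 1411 in CS and 1254 to 1430 in FC. Of 4 tested oligodendrocyte markers 3 were positive, with a median of 0.13. Over all 7 on the array, the sums were 1548 to 1886 in NH and 1691 to 2001 in FC. Astrocyte markers were positive in 5 of 6, with a median of 0.03. Endothelial markers were positive in 0 of 3 (median -0.04), choroid plexus markers in 0 of 2 (-0.08) and blood genes in 1 of 5 (-0.08). The summed intensity of all 8 blood genes on the array was 833 to 1399 in NH and 1068 to 1527 in FC. None of these sums allows for batch. The part of these cells in the members' differences was not tested.

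The genes whose levels over arrays most resembled each member were found from log2 values after the batch mean was removed, as the mean Pearson correlation of the 26 hippocampal and 22 amygdalar arrays, among 6506 probe sets (6507 for Ier2). They share arrays, batches and depth of labelling, so these are descriptions without a p-value. For Ier2 the nearest were Nr4a1 (0.67), Fos (0.66) and Junb (0.66), all immediate early genes. The genes nearest to the other members are not on the list of immediate early genes. Btg1 lay nearest to Sdha (0.81), a subunit of succinate dehydrogenase, Atp6ap1 (0.81) and Snx6 (0.81). Btg2 lay nearest to the kinase Src (0.67), Csnk1d (0.67) and Mogs (0.65). Plk2 lay nearest to Commd4 (0.77), Ramp1 (0.70) and Smpdl3a (0.69), and Mcl1 to Ccdc6 (0.79), Ube2v1 (0.75) and C9orf72 (0.74).

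For Ier2 the correlation was then taken with the arm means removed as well, so that differences between arms no longer contribute. In the hippocampus Nr4a1 still had 0.62, Fos 0.47 and Junb 0.43. In the amygdala the same values were -0.19, -0.02 and 0.05. Other members had higher values of this kind in the amygdala, 0.72 for Btg1 with Fos and 0.53 for Mcl1 with Nr4a1 (0.30 and 0.45 in hippocampus). In the amygdala the likeness was thus gone once the arm means were removed, whereas in the hippocampus it was also present among arrays of the same arm and batch. Btg1 and Btg2 had opposite tendencies from array to array, with a batch-centred correlation of -0.58 in hippocampus and -0.20 in amygdala.

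**Figure D4:**
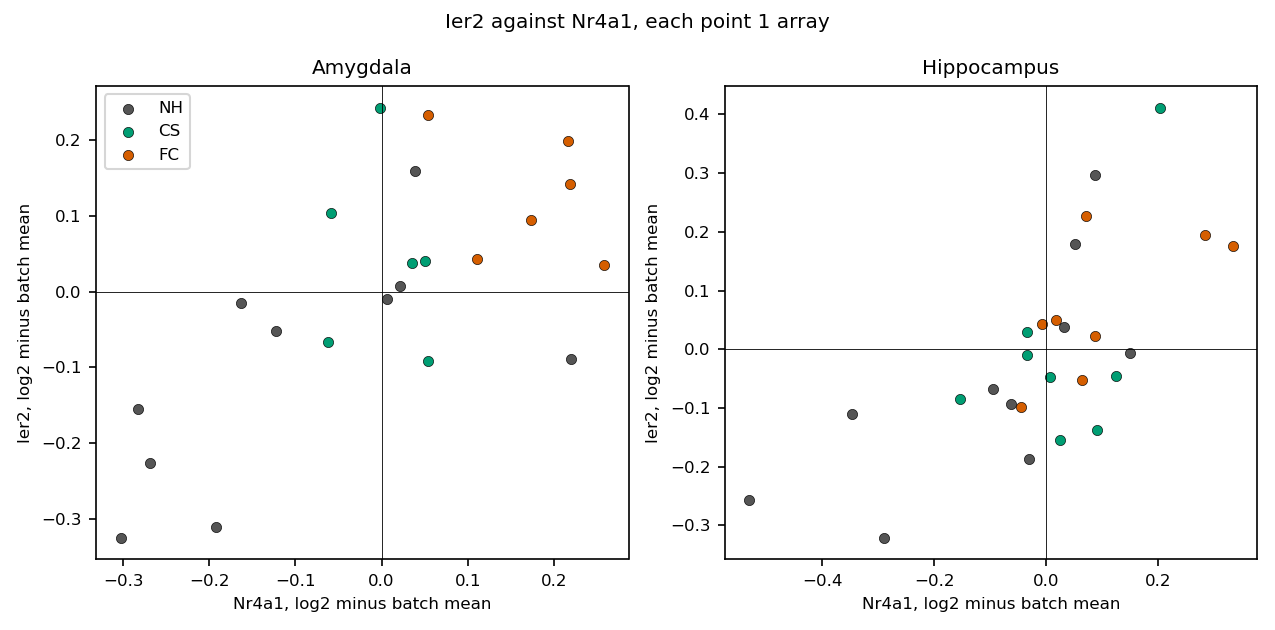
Log2 level of Nr4a1 against that of Ier2 in each array after the batch mean was removed (both axes), for hippocampus (26 arrays, r = 0.69) and amygdala (22 arrays, r = 0.66), with points by arm. Arrays of a batch that holds only NH, batch 1 or 7, are centred on their own mean and so lie around 0.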

How the data were processed

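Total RNA of 48 dissected samples was measured on Affymetrix arrays. The deposited intensity values, 1 per probe set and array on a linear scale, were made with RMA per the submitters' processing notes; the sources used here do not give its version or settings. Since RMA makes array distributions alike, it hides shifts common to most transcripts. Of 12488 probe sets 66 array controls were left out; 10833 name 1 gene (10817 matched to RefSeq, GRCm38.p6, by identifier), 396 several and 1193 none, per the platform annotation.

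Log2 of the intensity was taken with nothing added. The dimmest 40% by mean level in a tissue were not tested, and limma 3.58.1 (R 4.3.3; lmFit, eBayes) was fitted to the other 7453 with arm and batch, two-sided, with Benjamini-Hochberg adjustment. The number of arrays limits the precision. The fit was tested on simulated data.

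All member probe sets are named, with list genes that passed or were the 3 largest, the 3 most alike genes per member, and Fos, Junb, Nr4a1, Egr1 and Dusp1. The brightest probe set stood for a list gene. The members and lists were chosen with earlier results of these data known. Alternatives were the filter, batch term, array weights, offset, normalization, averaging of probe sets, arms fitted and each array left out.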

Additional observations from a re-analysis of the deposited data

Results flagged for a closer look

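In 30 groups (5 genes, 2 tissues, 3 arms), 3 single arrays stood apart from the rest of their group by Dixon's criterion, which chance meets in about 1 of 20 groups. Btg1 read 5.98 in hippocampus FC replicate 113 of batch 4, where the next lowest array read 6.41. Btg2 read 8.56 in hippocampus CS replicate 31 of batch 5, and the next highest array read 8.45. Plk2 read 8.93 in amygdala NH replicate 16768 of batch 1, and the next lowest read 9.09. Batch 1 holds only NH arrays, so that array does not enter the batch-adjusted difference of Plk2. None of the 15 tissue differences passed its test.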

How the results depend on the processing

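In amygdala FC minus NH the number of members that passed was 1 with no filter on dim probe sets (Ier2), 3 with no batch term and 3 with array weights (Btg2, Plk2 and Mcl1 in both), against 0; all probe sets called numbered 8, 211 and 911 against 7. In amygdala CS minus NH it was 1 with no batch term (Plk2), with 17 called against 1. In every other setting run, each array left out in turn included, it was 0 in all 6 comparisons. Without the batch term the 6 NH arrays of batch 1 enter, and batch and arm cannot be told apart for them. The adjusted p of Ier2 without the filter in amygdala FC minus NH, chosen after seeing the data, ran from 0.00283 to 0.0717 with each array left out, was 0.202 in batch 2 alone and 0.455 in batch 3 alone, and lay between 3.42e-05 (no batch term) and 0.0166 (16 added before the log) otherwise. Of 1073 recomputed differences, 14 moved by more than 1 SD, 12 of them in single batches, and 33 changed sign; of those, 1 had a main value over 0.15 (Mcl1, hippocampus CS minus NH, -0.06 in batch 6). The cause was not tested. No paired analysis was possible because arms of a tissue share no replicate number.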
